A study of Zea mays with 12 samples.

Results

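zma-MIR164b, zma-MIR166d and zma-MIR171f are maize loci that encode microRNA precursors of the MIR164, MIR166 and MIR171 families, and they were taken by these identifiers from the 26451 entries of an expression table, which lists 25 microRNA loci in all. All 3 were found. The RNA came from primary roots of the maize inbred line B73. Seedlings that had germinated for 3 days were kept for 24 h in 1 of 4 media: medium without nitrogen (the N-deprived control), medium with 1 mM nitrate, medium without nitrogen but with 2 µM TIS108 (an inhibitor of strigolactone synthesis), and medium with 1 mM nitrate and 10 µM PCIB (an inhibitor of auxin action). Every group had 3 biological replicates, each a pool of 4 to 8 plants, so 12 samples were sequenced, yet the table gives 1 authors' FPKM value (fragments per unit of feature length and of mapped library size) per entry and group.

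Without values per replicate there is no SD, no standard error and no p-value for any difference given here, and no difference can be set against the spread between replicates. The columns summed to between 447300 and 497447 FPKM. The depth of the libraries is unknown, because neither counts nor feature lengths were given. The photosystem genes psbA and psaB, which mark green tissue, reached at most 1.04 and 0.222 FPKM in any group, the values of the roots given nitrate and PCIB. Both are plastid genes and the libraries were made from poly(A) RNA, so low values do not settle whether green tissue was present.

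Plant microRNAs are cut from hairpins within longer, capped and polyadenylated primary transcripts, and the mature RNA then guides the cleavage of messenger RNAs with a near-complementary site. The members of a family yield the same or nearly the same mature RNA, and for these families most targets are transcription factors that shape organs. miR164 acts on NAC genes, which in Arabidopsis set organ boundaries and take part in lateral root formation; miR166 acts on class III HD-ZIP genes, which in the Arabidopsis root pattern the xylem; miR171 acts on GRAS genes of the HAIRY MERISTEM type, which maintain meristems in Arabidopsis. The libraries were made from poly(A) RNA, so the values describe reads over the precursor loci and not mature microRNA.

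The 3 loci had different patterns. zma-MIR171f stood far lower in roots given nitrate and PCIB than in the other groups, zma-MIR166d stood highest in roots given nitrate, and zma-MIR164b, the most abundant, varied least. In whole roots, fewer cells that express a locus and less RNA per cell cannot be told apart. By coordinates, with strand not compared, RefSeq (assembly Zm-B73-REFERENCE-NAM-5.0) places each of the 3 inside a gene annotated as a long non-coding RNA. These genes are LOC100304230 for MIR164b, LOC115029023 for MIR166d and LOC115032967 for MIR171f. Of the 25 microRNA loci, 21 lie inside such a gene. Each locus also has an ENSRNA entry with identical values in all 4 columns (ENSRNA049997418 for zma-MIR164b, ENSRNA049997313 for zma-MIR166d and ENSRNA049997305 for zma-MIR171f), so every locus and its ENSRNA entry are 1 measurement.

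**Figure D1:**
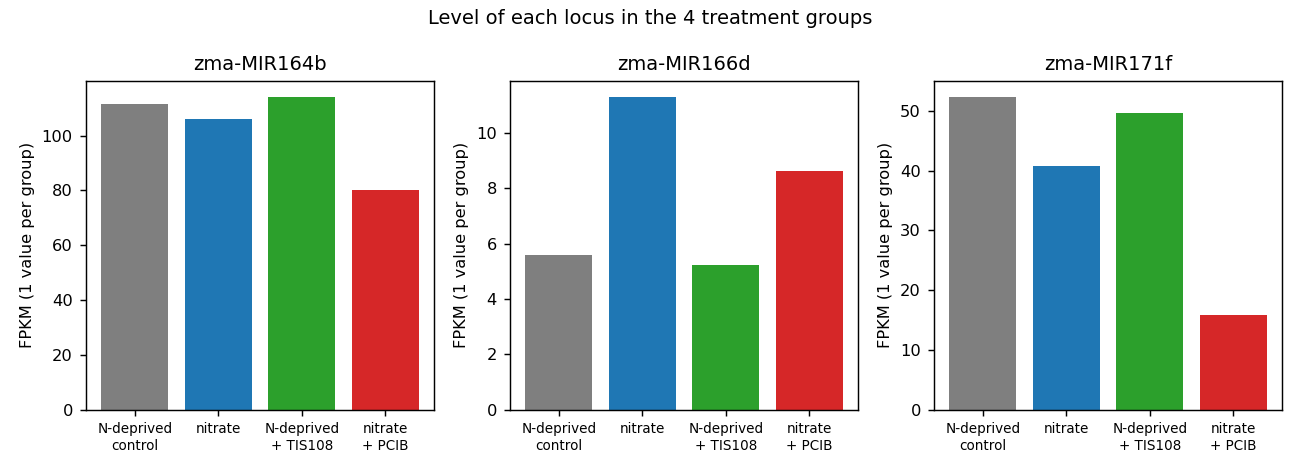
FPKM (vertical axes, from 0, a separate scale per locus) of zma-MIR164b, zma-MIR166d and zma-MIR171f in the 4 groups, 1 bar for the authors' single value per group, with no error bars because no replicate values were given. zma-MIR164b lies between 80.2 and 114 FPKM, zma-MIR166d is highest with nitrate at 11.3 FPKM, and zma-MIR171f is lowest with nitrate and PCIB at 15.8 FPKM.

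The MIR164 locus was described first. zma-MIR164b stood at 111 FPKM in the N-deprived control, 106 FPKM with nitrate, 114 FPKM with TIS108 and 80.2 FPKM with nitrate and PCIB. Its highest value was 1.42 times its lowest, and the 3 groups without PCIB lay close together while the group with PCIB stood below them. By mean level it ranked 1 of the 25 microRNA loci, and 97.2% of all entries had a lower mean. Entries whose mean over the 4 columns lay within 1.5-fold of it had a median ratio of highest to lowest of 1.31 (825 entries), and 34.1% of them had a ratio at least as large. Here and below, entries of like level were not matched for feature length. A short locus rests on fewer fragments at a given FPKM, so these shares can overstate how unusual its values are.

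zma-MIR164d was the other of the 2 MIR164 loci in the table, out of 8 that RefSeq names. It stood at 4.18 FPKM in the control, 3.16 FPKM with nitrate, 3.44 FPKM with TIS108 and 2.77 FPKM with nitrate and PCIB. Per length, zma-MIR164b was therefore 26.7 to 33.5 times as abundant as zma-MIR164d in every group. Both were lowest with nitrate and PCIB, but so were 9 of the 25 microRNA loci and 26.7% of the 16001 entries that reached 5 FPKM in any group. For zma-MIR164b that group lay below the lowest of the other groups by 0.40 on the log2(FPKM + 1) scale. A gap at least that wide was reached by 313 of the 16001 entries (1.96%). The group and direction of this gap were picked from the locus's own values, so the share is a description. The same holds for zma-MIR166d and zma-MIR171f below. For zma-MIR164b the next group was nitrate, so a later comparison gives the same difference.

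The MIR166 locus was next. zma-MIR166d stood at 5.58 FPKM in the N-deprived control, 11.3 FPKM with nitrate, 5.24 FPKM with TIS108 and 8.61 FPKM with nitrate and PCIB. Both groups supplied with nitrate lay above both groups without nitrogen, and the group with PCIB lay between. Its highest value was 2.16 times its lowest, against a median ratio of 1.29 over 5617 entries of like mean level, of which 7.96% had a ratio at least as large. Nitrate gave the highest value for 31.8% of the 16001 entries. For zma-MIR166d it led the next group by 0.36 on the log2(FPKM + 1) scale. A lead of nitrate at least that wide was reached by 249 of the 16001 entries (1.56%). The next group was nitrate and PCIB, so a later comparison gives the same difference.

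zma-MIR166a, the other of the 2 MIR166 loci in the table out of 13 in RefSeq, was lower and had another order. Its level was 2.05 FPKM in the control, 3.05 FPKM with nitrate, 3.66 FPKM with TIS108 and 1.90 FPKM with nitrate and PCIB. zma-MIR166a thus stayed below 5 FPKM in every group. Its highest value was 1.92 times its lowest, and 26.3% of 3974 entries of like level had a ratio at least as large. The ratio of zma-MIR166d to zma-MIR166a was 1.43 with TIS108 and 4.52 with nitrate and PCIB, the ends of its range. Both loci were above the control with nitrate, whereas with TIS108 zma-MIR166a was above it and zma-MIR166d was not. With TIS108, 0.604% of the 3974 entries of like level lay at least as far above the control as zma-MIR166a. With nitrate this share was 4.30%.

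**Figure D2:**
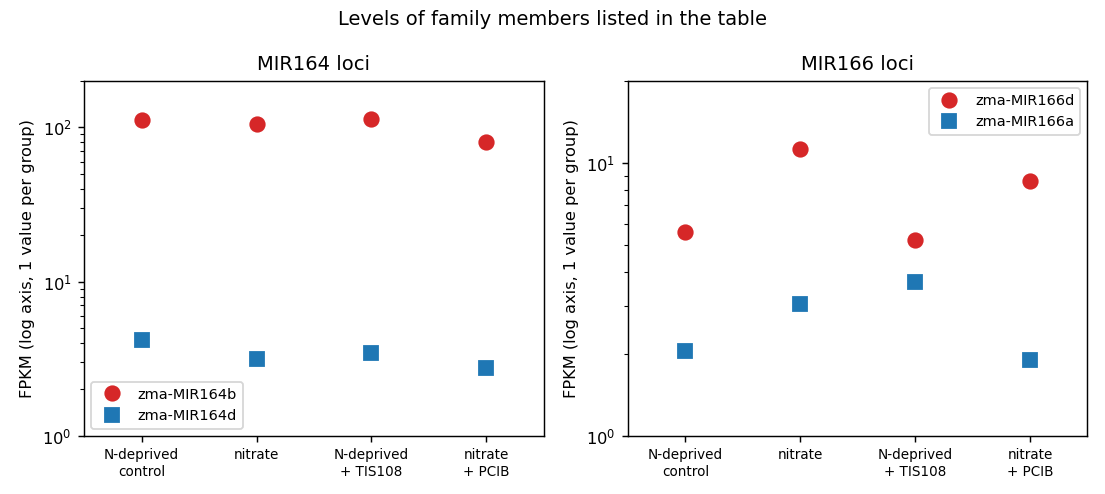
FPKM (log axes) in the 4 groups for the MIR164 loci (left: zma-MIR164b circles, zma-MIR164d squares) and the MIR166 loci (right: zma-MIR166d circles, zma-MIR166a squares), each point the authors' single value. The MIR164 loci keep a ratio of 26.7 to 33.5, while that of the MIR166 loci moves between 1.43 and 4.52. Both zma-MIR164d and zma-MIR166a stay below 5 FPKM in every group.

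The MIR171 locus had the widest range of the 3. zma-MIR171f stood at 52.4 FPKM in the N-deprived control, 40.8 FPKM with nitrate, 49.6 FPKM with TIS108 and 15.8 FPKM with nitrate and PCIB. The group with PCIB stood apart, below the lowest of the other groups by 1.31 on the log2(FPKM + 1) scale. A gap that wide below every other group was reached by 13 of the 16001 entries (0.0812%), zma-MIR171f and its ENSRNA entry among them. This group and direction were picked from the locus's own values. The gap is the difference from nitrate alone, which is given again below. The highest value was 3.31 times the lowest, and 1.73% of 2482 entries of like mean level had a ratio at least as large. It ranked 2 of the 25 microRNA loci by mean level and was the 1 MIR171 locus in the table, out of 14 in RefSeq.

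The first comparison, nitrate against the N-deprived control, addressed the response of the roots to nitrate. The limit for counting a difference was 2-fold after adding 1 to each FPKM, for entries where the higher of both groups reached 5 FPKM, and 4.02% of 15510 such entries met it in either direction. None of the 3 loci met it. zma-MIR166d came nearest, with a plain ratio of 2.03 and a log2(FPKM + 1) difference of 0.90, the fourth highest of the 25 microRNA loci. Of the 5617 entries of like mean level, which were not matched for length, 0.605% lay at least as far above the control. zma-MIR171f stood below the control with a ratio of 0.779, and 14.4% of its 2482 entries of like level lay at least as far below. zma-MIR164b differed by -0.07 on the log2 scale, and the sign turned under other scalings, to 0.01 with equal column sums and to 0.04 after quantile normalization.

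The second comparison, TIS108 against the N-deprived control, asked what inhibition of strigolactone synthesis does in roots without nitrogen. Here the loci differed little, and none met the limit, which 1.87% of 15381 entries did. The log2(FPKM + 1) differences were 0.04 for zma-MIR164b, -0.08 for zma-MIR166d and -0.08 for zma-MIR171f. With equal column sums they were 0.19, 0.05 and 0.07, where the median of all entries was 0.15 in place of 0.01. After quantile normalization they were 0.28, -0.02 and 0.03, where that median was 0.06. The signs of zma-MIR166d and zma-MIR171f thus turned with the scaling, while relative to the median of all entries both stood lower and zma-MIR164b higher under all 3 settings. With the values as deposited, at least as far in the same direction lay 26.2%, 32.4% and 39.3% of the entries of like level, in that order of loci.

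The direct comparison of TIS108 with nitrate asked whether the inhibitor gave levels like those of nitrate. zma-MIR166d stood at 5.24 FPKM with TIS108 against 11.3 FPKM with nitrate, a ratio of 0.464. Its log2(FPKM + 1) difference of -0.98 was just short of the limit, which 1.35% of 15066 entries met. This value shares the nitrate column with the first comparison and adds no independent measurement. The difference was the second lowest of the 25 microRNA loci, and 0.552% of the entries of like level lay at least as far below. zma-MIR171f and zma-MIR164b stood above nitrate, with ratios of 1.22 and 1.08.

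The comparison of nitrate and PCIB with nitrate alone addressed inhibition of auxin action while nitrate was present. All 3 loci were lower with PCIB, and 1 of them, zma-MIR171f, met the limit. The limit was met in either direction by 4.56% of 15447 entries and on the lower side by 0.861%. zma-MIR171f had a plain ratio of 0.388 and a log2(FPKM + 1) difference of -1.31, and 4 of its 2482 entries of like level lay at least as far below. Among the 25 microRNA loci it was the second lowest, after zma-MIR408b at -1.42. Of the 15 microRNA loci that reached 5 FPKM in either group, 3 met the limit, all on the lower side. The third was zma-MIR167g at -1.29. zma-MIR164b had a ratio of 0.757 and zma-MIR166d one of 0.761, and 6.30% and 9.40% of the entries of like level lay at least as far below. For all 3 loci this difference is the gap or lead given above, so both are 1 reading. Over all microRNA loci 14 were above nitrate and 11 below, with a median log2 difference of 0.04, and over all 15447 entries the median was -0.05, with 57.6% below.

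**Figure D3:**
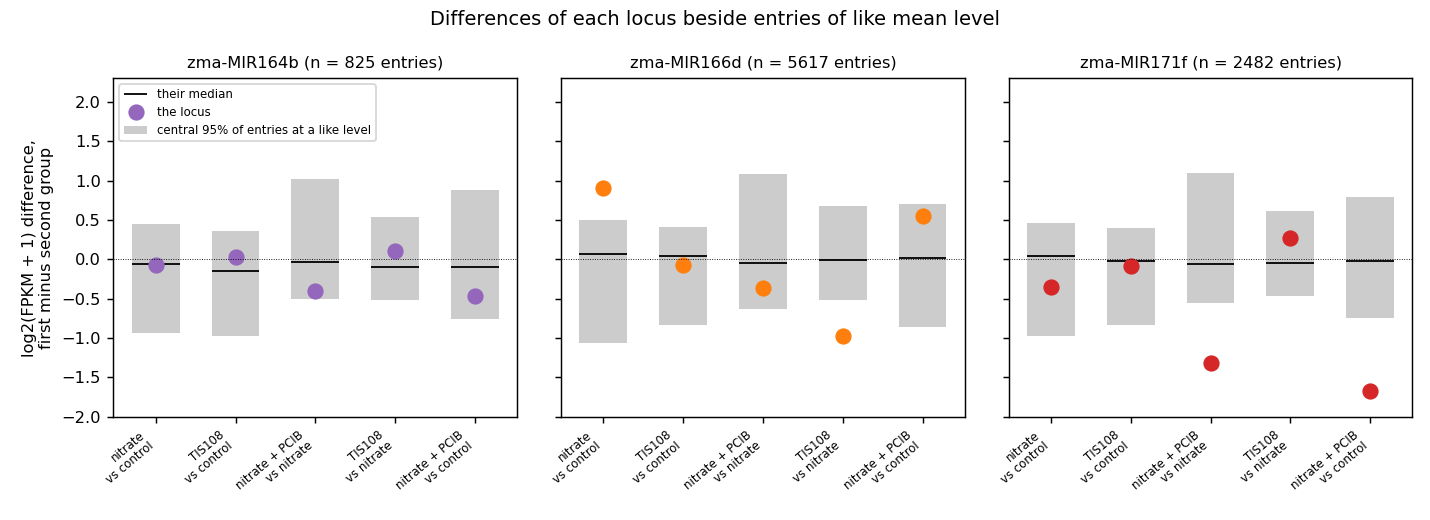
Difference in log2(FPKM + 1), first group minus second, in 5 comparisons (horizontal axis) for the 3 loci (coloured points), with the central 95% (grey bars) and the median (black lines) of entries whose mean level lies within 1.5-fold of the locus. zma-MIR171f lies below the grey bar in both comparisons of nitrate and PCIB, at -1.31 and -1.67, zma-MIR166d lies above it for nitrate at 0.90 and below it for TIS108 against nitrate at -0.98, and zma-MIR164b lies inside every bar.

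The last comparison set roots given nitrate and PCIB against the N-deprived control, to see whether PCIB brought levels back to those without nitrogen. The limit was met by 3.91% of 15622 entries, and by 2.0% on the lower side. zma-MIR171f again met it, with a ratio of 0.302 and a log2(FPKM + 1) difference of -1.67, the lowest of the 25 microRNA loci. zma-MIR398b also met it at -1.03, so 2 of the 13 microRNA loci that reached 5 FPKM did, both on the lower side. This comparison shares the PCIB column with the previous one, so the low value of zma-MIR171f in both is 1 reading. zma-MIR166d remained above the control with a ratio of 1.54 (log2 difference 0.55), and 4.01% of the entries of like level lay at least as far above. zma-MIR164b had a ratio of 0.719, and 9.09% lay at least as far below.

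**Figure D4:**
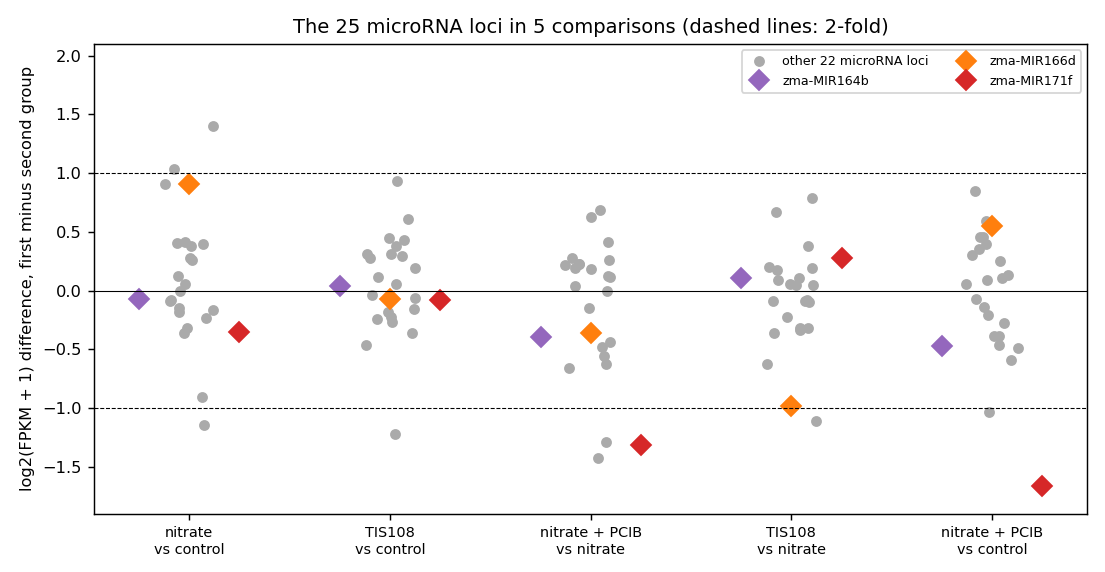
Difference in log2(FPKM + 1), first group minus second, of the 25 microRNA loci in 5 comparisons, with zma-MIR164b, zma-MIR166d and zma-MIR171f as coloured diamonds, the other 22 as grey circles (spread sideways for legibility) and dashed lines at 2-fold. zma-MIR171f is the lowest of all loci for nitrate and PCIB against the control (-1.67), and zma-MIR166d is the fourth highest for nitrate against the control (0.90).

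Entries with the most similar pattern were sought by the Euclidean distance between log2(FPKM + 1) profiles, each centred over the 4 groups, among 15999 entries that reached 5 FPKM in any group. MicroRNA loci were also compared among themselves, with no minimum level. The profiles were not scaled, so the number of entries within a fixed distance depends on the range of the locus as well as on its pattern. A locus that varies little has more near entries, so these numbers do not rank the loci by how common their patterns are. The pattern of zma-MIR164b, which varied least, had 762 entries (4.76%) within a distance of 0.25. The nearest were Zm00001d006238, Zm00001d026786 and Zm00001d026785. Among microRNA loci its nearest was zma-MIR164d at 0.26, followed by zma-MIR393b at 0.36, a locus of a family that targets auxin receptor genes. Of the 15999 entries, 815 lay at least as near to zma-MIR164b as zma-MIR164d did. The pattern of zma-MIR166d had 17 entries within 0.25, the nearest being Zm00001d009927, Zm00001d047658 and Zm00001d019988. The nearest microRNA locus to zma-MIR166d was zma-MIR169c, whose family acts on NF-YA transcription factor genes, at a distance of 0.37, followed by zma-MIR167b at 0.50. Within the distance of zma-MIR169c lay 47 of the 15999 entries.

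The pattern of zma-MIR171f, which had the widest range, had 3 entries within 0.25. Zm00001d052684 was the nearest at 0.20, and stood at 20.8 FPKM in the control, 18.6 FPKM with nitrate, 22.9 FPKM with TIS108 and 7.19 FPKM with nitrate and PCIB. The other two were Zm00001d052386 and Zm00001d020069. The nearest microRNA locus, zma-MIR164b, lay at 0.94 and zma-MIR160b at 1.00. Of the 15999 entries, 411 lay at least as near to zma-MIR171f as zma-MIR164b did. The nuclear gene models could not be paired with gene names here, so NAC, HD-ZIP and GRAS target genes could not be set beside their loci. Likeness over 4 values is a description of the columns.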

How the data were processed

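Poly(A) RNA of 12 root samples was sequenced from paired-end TruSeq libraries, per the labels' protocols. CASAVA 1.8, Trimmomatic 0.39, TopHat2 2.0.13 and the build B73 RefGen_v4 were used, per the submitters' processing notes, which give no role or order. The authors deposited FPKM values in 1 table, whose columns are the 4 groups per the file headers. The program, the annotation, the use of strand and how replicates were combined: none of these is stated in the sources used here. At a given FPKM a short feature such as a microRNA locus rests on fewer fragments than a long one, so its value is less stable.

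The 4 columns were matched to groups by name. Differences were taken as log2(FPKM + 1), which understates those of low entries, and as plain ratios of FPKM. With 1 value per group 0 tests were made and no interval could be given. Limma over replicates had been planned for the case of replicate columns. Levels of like size were set beside each locus as entries with a mean within 1.5-fold, with no match on feature length. The gaps between 1 group and all others were not part of the plan. The text names the 3 loci, entries of identical values, the 3 nearest entries and the 2 nearest microRNA loci by pattern; other loci were named after their values were seen. The members and lists were chosen with earlier results of these data known. Names came from RefSeq, assembly Zm-B73-REFERENCE-NAM-5.0, whose build differs from B73 RefGen_v4, so entries were matched by identifier. In this way 25 of 25 microRNA loci and 0 of 26061 nuclear gene models matched. Containing genes were found from RefSeq coordinates within that assembly, on either strand. No sequences of the loci were used here. Calling was tested on simulated data, with changes wider than the limit in entries at higher levels than zma-MIR166d. That simulation therefore does not cover differences near the limit, low entries or the spread between replicates. Alternatives were pseudocounts of 0.1 and 5, 3 rescalings of the columns and other minimum levels. Python 3.11.15, pandas 2.3.3 and numpy 2.4.6 were used.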

Additional observations from a re-analysis of the deposited data

How the results depend on the processing

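The differences of the 3 loci in 5 comparisons were each recomputed under 5 alternatives, and of these 75 values 68 kept the direction and the side of the 2-fold limit of the value as deposited, and both differences of zma-MIR171f with PCIB stayed past it (-1.36 to -1.14 against nitrate, -1.72 to -1.46 against the control). With a pseudocount of 0.1 zma-MIR166d met the limit with nitrate against the control (1.01) and with TIS108 against nitrate (-1.09), while with a pseudocount of 5 it stood at 0.62 and -0.67. Small differences changed sign in 5 cases. With columns rescaled to the same sum zma-MIR164b stood at 0.011 with nitrate, and zma-MIR166d and zma-MIR171f at 0.054 and 0.073 with TIS108, all against the control. After quantile normalization zma-MIR164b stood at 0.038 with nitrate and zma-MIR171f at 0.034 with TIS108. For TIS108 against the control zma-MIR164b moved from 0.04 to 0.19 with columns rescaled and to 0.28 after quantile normalization. Rescaling to the same sum moved the median of all entries to 0.13 for nitrate and 0.15 for TIS108 against the control.

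A pseudocount of 5 left fewer entries past the limit, by its construction: 239 in place of 623 for nitrate against the control, 105 in place of 287 for TIS108 against the control, 339 in place of 705 for nitrate and PCIB against nitrate, 80 in place of 204 for TIS108 against nitrate, and 282 in place of 611 for nitrate and PCIB against the control. A minimum of 10 FPKM left 387 for nitrate against the control. With a pseudocount of 0.1, 3, 2 and 2 of the 3 nearest entries of zma-MIR164b, zma-MIR166d and zma-MIR171f were the same. No paired analysis was possible because the table gives 1 value per group, and no replicate could be left out. Without counts, the limit that depth sets cannot be sized.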
